A study of Mus musculus with 19 samples.

Results

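The ID factors and the inhibitors of bone morphogenetic protein (BMP) signalling followed here are 8 genes, Id1, Id2, Id3, Id4, Smad6, Smad7, Bmp4 and Grem1, chosen by gene symbol, out of 18193 genes named on a whole-genome mouse array. They were measured by 13 probe sets: 3 each for Id2 and Id4, 2 for Smad7 and 1 for each of the other genes. Messenger RNA of NIH3T3 cells, an established mouse fibroblast line, was hybridised to 19 arrays in 11 groups. All cells were first held for 48 h in 0.1% serum, which left them quiescent, and all treated cells then received basic fibroblast growth factor (FGF, 50 ng/ml). In 4 groups U0126, an inhibitor of the kinase MEK that activates ERK, was given at 20 µM from -0.5 h relative to FGF, and the cells were measured at 1, 4, 7 or 12 h. In a further group U0126 was added at 1 h and the cells were measured at 7 h, and in another it was added at 7 h and the cells were measured at 12 h. FGF alone was measured at 1, 4, 7 and 12 h, and quiescent cells served as the baseline. Groups at 1 h and with late U0126 held 1 array, from experiment 1, and the other treated groups held 2, from experiments 1 and 2. Quiescent cells had 3 arrays, of which replicates 1a and 1b came from experiment 1 and were averaged, leaving 2 samples. No group received U0126 without FGF among the samples analysed here. The labels do not say whether the experiments used separate cultures, so p-values measure the spread between these samples, which may be technical.

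ID proteins are helix-loop-helix factors that lack the basic region needed to bind DNA; by pairing with E proteins they keep those partners and tissue-specific factors off their sites, and they are known for holding cells in a proliferating, undifferentiated state. BMP ligands such as BMP4 bind paired serine/threonine kinase receptors, which phosphorylate the SMAD transducers, and ID genes are among their best-known targets in fibroblasts and other mesenchymal cells. Smad6 and Smad7 encode inhibitory SMADs, which are themselves induced by the pathway and act back on the receptors and transducers, while Gremlin 1, the product of Grem1, is secreted and captures BMP ligands.

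Proximal promoters were available in the RefSeq table for 6 of the 8 genes, all except Id1 and Smad7. The windows of Id3 and Smad6 are shown because these 2 genes were the ones in that table called for U0126 on average, in opposite directions (values below). Each runs for 300 bases, 250 before the transcript start and 50 after it, on GRCm38.p6. The Id3 window is chr4:136143572-136143871 on the plus strand and the Smad6 window is chr9:64022010-64022309 on the minus strand. Capitals mark matches to any of 11 motifs searched on both strands.
Id3: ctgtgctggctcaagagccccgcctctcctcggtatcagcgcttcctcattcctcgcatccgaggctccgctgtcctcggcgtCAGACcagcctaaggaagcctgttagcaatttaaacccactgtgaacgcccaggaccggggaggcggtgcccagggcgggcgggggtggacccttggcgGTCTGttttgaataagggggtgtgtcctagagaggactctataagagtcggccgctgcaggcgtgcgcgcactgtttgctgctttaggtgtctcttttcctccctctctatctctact
Smad6: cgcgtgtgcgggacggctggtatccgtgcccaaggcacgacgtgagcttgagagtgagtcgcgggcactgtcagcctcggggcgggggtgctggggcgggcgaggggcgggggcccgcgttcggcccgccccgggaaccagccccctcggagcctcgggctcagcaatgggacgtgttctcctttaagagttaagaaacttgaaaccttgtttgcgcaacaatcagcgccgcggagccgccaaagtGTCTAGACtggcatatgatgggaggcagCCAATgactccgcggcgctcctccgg
Id3 held the SMAD box CAGAC at bases 84 to 88 and its reverse complement at bases 183 to 187, counted from 1 at the 5′ end of the window, a motif present in 49.6% of all 32851 promoters of the same length. Smad6 held the SMAD palindrome GTCTAGAC at bases 247 to 254, across the transcript start, which 0.213% of all promoters hold. It also held CCAAT at bases 275 to 279, present in 37.4%. The GC-rich element GGCGCC, which BMP-activated SMADs can bind, was found in 11.9% of all promoters and in those of Id2, Id4 and Grem1, at bases 20 to 25, 103 to 108 and 173 to 178. It was in neither of the printed windows. GC content was 60% for Id3 and 66.3% for Smad6, against a median of 52.7% over all promoters. The other motifs were TGACTCA (5.2%), TGACGTCA (1.79%), GCGTGGGCG (0.612%), GCGGGGGCG (2.91%), CAGCTG (16.3%), CCGGAAGT (3.89%) and TATAAA (13.6%). Of these, CAGCTG matched once, in Id2, and the rest matched in none of the 6 windows. A motif match describes the letters of the window and no binding was measured.

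Values are MAS5 signals, a linear brightness per probe set that cannot be compared between probe sets. Medians per array were 60.2 to 88.3, Gapdh 3′/5′ signal ratios 0.698 to 0.8 and Actb ratios 1.16 to 1.47. Precision is limited by how few arrays each group had. A signal under 45.2, the 40th percentile of all values, was taken as not shown above background. Averaged over 4, 7 and 12 h, U0126 changed the ERK targets Dusp6 by -2.42 ± 0.09 and Egr1 by -4.06 ± 0.17 (log2 ± SE, adjusted p = 3.97e-10 and 5.9e-10), and Spry4, at signals of 46.7 to 143, by -0.53 ± 0.22 (adjusted p = 0.105). All 8 fibroblast markers exceeded the median of their array on all 19 arrays. Among markers of other cell types, that was so for Csf1r of 5 macrophage markers, Epcam of 4 epithelial markers, Lpl of 4 adipocyte markers, and 0 of 4 endothelial and 0 of 3 muscle markers. In such bulk samples, fewer cells expressing a gene and less RNA per cell cannot be told apart.

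The limma tests, 2-sided, on log2(signal + 13.6) were adjusted over 14996 genes by Benjamini-Hochberg, and a gene was called at an adjusted p under 0.05. The offset understates changes of low genes. Groups of 1 array, at 1 h and with late U0126, have no spread of their own: their SE and p take the spread of the other groups and assume that the lone array varies like those. The 4 genes that were called most often, Id1, Id3, Smad6 and Smad7, followed different courses. Id1 was higher with FGF and lower with U0126 at every replicated time. Id3 was highest at 1 h of FGF, fell far below quiescent cells by 7 and 12 h, and was on average higher with U0126. Smad6 and Smad7 were lower with U0126 on average, Smad7 being called in only 1 of its 2 probe sets. Id2 and Grem1 were called in no comparison, Id4 only in 1 of its probe sets, and Bmp4 was too low to test.

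**Figure D1:**
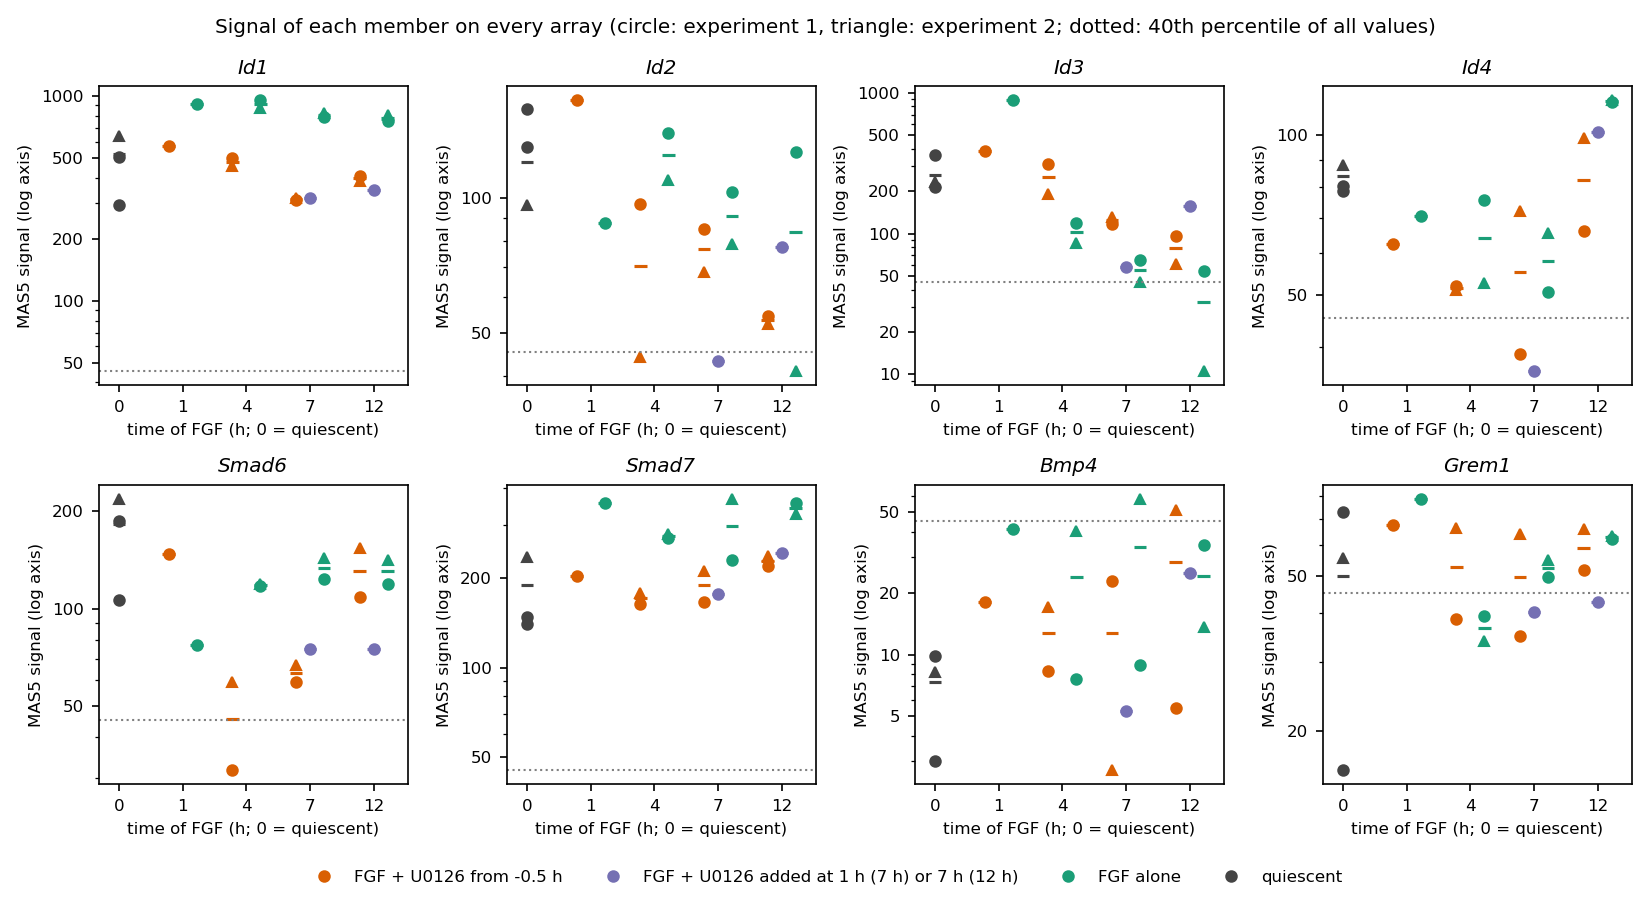
Signal of each gene on every array (log axis, a range per gene) against hours of FGF, by treatment, with a bar at the group mean; where a gene had several probe sets the one representing it is drawn. Id1 separates by U0126 at each time, Id3 spans 10.5 to 895.6, and the values of Bmp4 lie mostly under the dotted 40th percentile.

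Of the 7 genes tested, limma called 0 for FGF at 1 h against quiescent cells (0.48% of all genes; 4 had an unadjusted p under 0.05), 1 at 4 h (8.9%), 2 at 7 h (12.6%) and 3 at 12 h (20.3%). For U0126 against FGF alone the counts were 0 at 1 h (0.18% of all genes; 1 at an unadjusted p under 0.05), 2 at 4 h (5.93%), 1 at 7 h (6.07%) and 1 at 12 h (12%). The average U0126 effect over 4, 7 and 12 h was called for 4 of 7, with 1 higher and 3 lower, where 22% of all genes were called, 11.7% higher and 10.3% lower. The median average effect of the 7 was -0.46 on the log2 scale, against 0.01 over all genes. The members were chosen with earlier results of these data known, so their counts and median are not independent of these data. With the experiment number as a block, which pairs samples of the same experiment, the counts were 2 for FGF at 4 h (17.7% of all genes), 3 for U0126 at 7 h (12.5%) and 2 for U0126 at 12 h (20.6%). For U0126 at 4 h the block gave 3 in place of 2, with the share over all genes not given here. The comparisons with quiescent cells share the quiescent arrays, and the FGF arrays enter both the FGF and the U0126 comparisons.

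Id1, which encodes the ID factor most often used as a readout of BMP signalling, gave 295.2, 501.5 and 641.7 in quiescent cells, 914.7 at 1 h of FGF, 961.3 and 875.6 at 4 h, 792.2 and 826.7 at 7 h, and 757.9 and 807.6 at 12 h. All 7 FGF arrays lay above all 3 quiescent arrays. The difference was 0.86 ± 0.25 (log2 ± SE) at 1 h and not called (adjusted p = 0.235). It was called at 4 h (0.86 ± 0.20, adjusted p = 0.0146), at 7 h (0.69 ± 0.20, adjusted p = 0.0376) and at 12 h (0.64 ± 0.20, adjusted p = 0.0366), so signal stayed 1.51 to 1.77 times that of quiescent cells. The quiescent arrays themselves spread widely for this gene. Without quiescent replicate 1a the adjusted p was 0.0587 at 7 h and 0.0674 at 12 h, and without quiescent replicate 2 the rise at 1 h was called (1.22, adjusted p = 0.0348). Without replicate 1 or 2 of the FGF group in question the adjusted p was 0.0983 and 0.0645 at 4 h, 0.116 and 0.128 at 7 h, and 0.106 and 0.163 at 12 h. Leaving out replicate 1 or 2 of FGF at 12 h gave 0.0504 and 0.0506 for 7 h. The calls were also lost with only the compared groups in the fit (0.0567 at 4 h, 0.151 at 7 h, 0.0682 at 12 h), and those at 7 and 12 h without the variance trend (0.0791, 0.0704) or when the most variable probe set stood for each gene (0.0657, 0.0625).

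With U0126 from the start Id1 gave 571 at 1 h, 495.7 and 456.7 at 4 h, 311.5 and 317.6 at 7 h, and 409 and 386.5 at 12 h. Group means were 476 ± 27.6 with U0126 against 918 ± 60.6 with FGF alone at 4 h, 315 ± 4.31 against 809 ± 24.4 at 7 h, and 398 ± 15.9 against 783 ± 35.1 at 12 h (SD, n = 2 each). Every U0126 array of Id1 was below every FGF array of the same time, and those at 7 h were closest to the lowest quiescent array. The U0126 effect was -0.67 ± 0.29 at 1 h (adjusted p = 0.647), -0.93 ± 0.20 at 4 h (adjusted p = 0.0125), -1.33 ± 0.20 at 7 h (adjusted p = 0.000803) and -0.95 ± 0.20 at 12 h (adjusted p = 0.00573). Averaged over 4, 7 and 12 h it was -1.07 ± 0.12 (adjusted p = 9.33e-06). That average and the 7 h call held under all 27 alternatives. Those that left out an array of another group acted mainly through the shared spread. The 12 h call was lost without replicate 2 of FGF at 12 h (adjusted p = 0.0523). The 4 h call of Id1 was lost without quiescent replicate 1b (0.05), replicate 1 or 2 of FGF at 4 h (0.0976, 0.0568), or replicate 1 or 2 with U0126 (0.0523, 0.085).

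Late addition gave 317.3 for Id1 when U0126 came at 1 h and cells were measured at 7 h, and 348.7 when it came at 7 h and cells were measured at 12 h. Both arrays were below all FGF arrays of their time. The differences from FGF alone were -1.31 ± 0.25 (adjusted p = 0.00644) and -1.14 ± 0.25 (adjusted p = 0.0148), each from 1 late array with the spread of the other groups. Called members numbered 1 of 7 for the addition at 1 h (3.59% of all genes) and 2 of 7 for the addition at 7 h (5.05%). The second Id1 call was lost without quiescent replicate 1b (adjusted p = 0.056), without replicate 2 of FGF at 12 h (0.0817) and without the variance trend (0.0557). Late minus early U0126 was 0.01 (95% interval -0.52 to 0.54) at 7 h and -0.18 (-0.71 to 0.35) at 12 h, neither called. In those late-minus-early comparisons 0 of 7 members were called at 7 h, with 0% of all genes, and 0 of 7 at 12 h, with 0.674%. An unadjusted p under 0.05 was also reached by 0 members in both.

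Id3, a close relative of Id1, gave 215, 362.6 and 233.9 in quiescent cells and 895.6 at 1 h of FGF. It then gave 119.8 and 85.6 at 4 h, 64.9 and 45.2 at 7 h, and 54.5 and 10.5 at 12 h. The single 1 h array was above every other array of the series for this gene, and all FGF arrays from 4 h on were below all quiescent ones. Replicate 2 at 7 and at 12 h was under the 40th percentile of its array, so the size of those falls is uncertain. The change against quiescent cells was 1.75 ± 0.52 at 1 h (adjusted p = 0.251), -1.23 ± 0.42 at 4 h (adjusted p = 0.0901), -1.99 ± 0.42 at 7 h (adjusted p = 0.00618) and -2.73 ± 0.42 at 12 h (adjusted p = 0.000341). With the block the 4 h fall of Id3 passed (adjusted p = 0.0128), as it did without replicate 1 or 2 of FGF at 12 h (0.033, 0.0306), with the 3 quiescent arrays kept separate (0.0452), with the higher offset (0.0399) and with only the compared groups in the fit (0.0303). That last fit also called the 1 h rise (0.0116). Between 1 and 4 h of FGF, Id3 fell by 2.98 on the log2 scale (SE 0.52, adjusted p = 0.00491, from 1 array at 1 h with the spread of the other groups), the only one of 7 members called there, where 5.18% of all genes were. From 4 to 7 h and from 7 to 12 h 0 of 7 were called, with 0.12% and 1.83% of all genes and with 0 and 1 at an unadjusted p under 0.05.

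The U0126 arrays of Id3 read 388.5 at 1 h, 311.1 and 190.6 at 4 h, 117.4 and 131.8 at 7 h, and 95.9 and 61.1 at 12 h. Group means were 251 ± 85.2 with U0126 against 103 ± 24.2 with FGF alone at 4 h, 125 ± 10.2 against 55.1 ± 13.9 at 7 h, and 78.5 ± 24.6 against 32.5 ± 31.1 at 12 h (SD, n = 2 each). At 1 h the U0126 array of Id3 was below the FGF array, and at 4, 7 and 12 h both U0126 arrays were above both FGF arrays. The effect was -1.18 ± 0.60 at 1 h (adjusted p = 0.773). It was 1.16 ± 0.42 at 4 h, 1.02 ± 0.42 at 7 h and 1.16 ± 0.42 at 12 h, none of them called (adjusted p = 0.14, 0.216 and 0.0978). With the block all 3 passed (adjusted p = 0.0227, 0.0466 and 0.0156), and without replicate 1 of FGF at 12 h the 12 h effect was 1.91 (adjusted p = 0.00929). The average over these times was 1.11 ± 0.24 (adjusted p = 0.00374), called under all 27 alternatives. Id3 was the one member called higher with U0126 on average, with mean signal 2.44 times that of FGF alone at 4 h. At 7 and 12 h replicate 2 of FGF alone was under the 40th percentile of its array, so no fold is given there.

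With U0126 added at 1 h, Id3 read 57.9 at 7 h, between both FGF arrays of that time (0.07 ± 0.52, adjusted p = 0.969). With U0126 added at 7 h it read 157.3 at 12 h, above both FGF arrays and both arrays with early U0126. That difference from FGF alone was 2.08 ± 0.52 (adjusted p = 0.031), from 1 late array with the spread of the other groups. It rests in part on replicate 2 of FGF at 12 h, without which it was 1.33 (adjusted p = 0.174). It was also lost after quantile normalization (0.0552), with no filter (0.055), without the variance trend (0.0935) and with only the compared groups in the fit (0.119). Late minus early U0126 was -0.95 (95% interval -2.06 to 0.16) at 7 h and 0.92 (-0.19 to 2.02) at 12 h for Id3, not called.

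**Figure D2:**
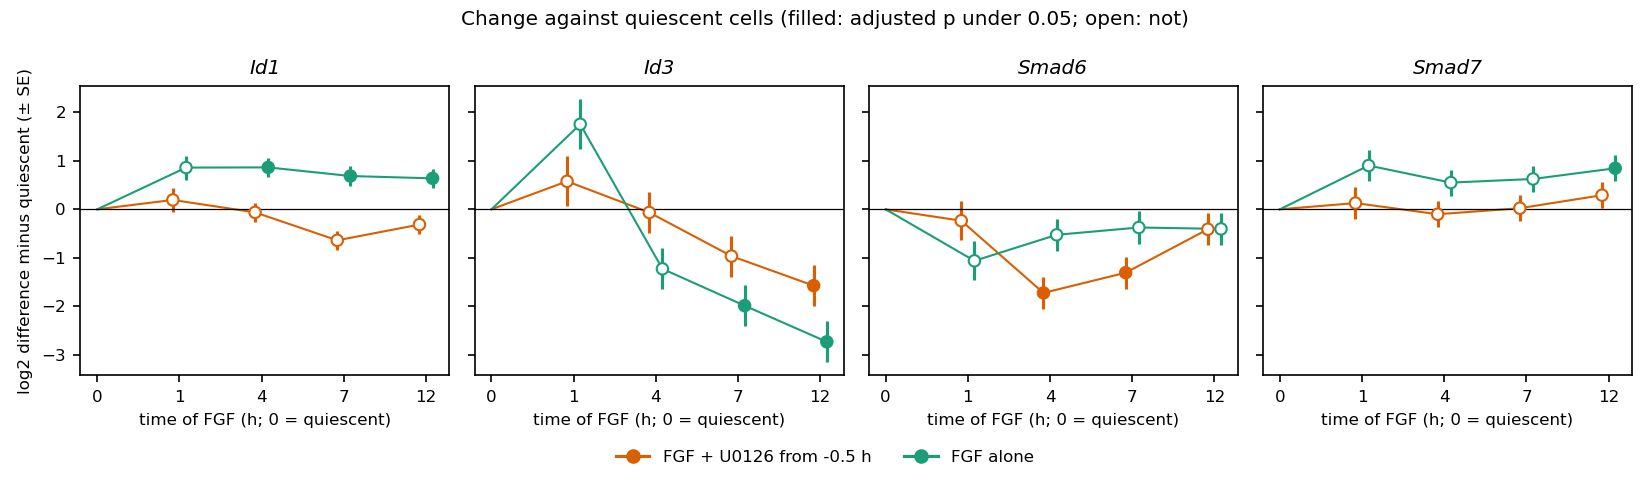
Log2 difference from quiescent cells (± SE) for Id1, Id3, Smad6 and Smad7 against hours of FGF (times evenly spaced), with U0126 from -0.5 h and with FGF alone; filled points had an adjusted p under 0.05. With FGF alone Id1 stays between 0.64 and 0.86 while Id3 falls to -2.73 at 12 h, and with U0126 Smad6 reaches -1.72 at 4 h.

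Against quiescent cells, FGF with U0126 gave 0 called members at 1 h (0.113% of all genes; also 0 at an unadjusted p under 0.05), 1 at 4 h (7.38%), 1 at 7 h (9.07%) and 1 at 12 h (5.42%). With the block 3 were called at 7 h (18.5%). Id3 differed from quiescent cells by 0.58 ± 0.52 at 1 h, -0.07 ± 0.42 at 4 h, -0.96 ± 0.42 at 7 h (adjusted p = 0.193, with the block 0.0461) and -1.57 ± 0.42 at 12 h (adjusted p = 0.0435). The 12 h call of Id3 was lost in 14 of 27 alternatives. Its adjusted p was 0.0743 and 0.166 without quiescent replicates 1b and 2, 0.0511 and 0.051 without replicate 1 or 2 of FGF at 4 h, 0.0555 and 0.0561 without either 7 h U0126 array, and 0.0946 and 0.236 without either 12 h U0126 array. Id1 differed by 0.19 ± 0.25 at 1 h, -0.06 ± 0.20 at 4 h, -0.64 ± 0.20 at 7 h (adjusted p = 0.0643, with the block 0.0183, without quiescent replicate 1a 0.0048) and -0.31 ± 0.20 at 12 h.

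Id2 was represented by 1435176_a_at, the brightest of its 3 probe sets. With U0126 it gave 165.6 at 1 h, 96.9 and 44.1 at 4 h, 85.1 and 68.5 at 7 h, and 54.6 and 52.2 at 12 h. Without U0126, Id2 gave 130.1, 157.7 and 96.6 in quiescent cells and, with FGF alone, 87.8 at 1 h, 139.4 and 109.7 at 4 h, 103.1 and 78.9 at 7 h, and 126.5 and 41 at 12 h. Late U0126 gave 43.2 at 7 h and 77.7 at 12 h. The groups overlap at 7 and 12 h, and the FGF arrays at 12 h lay far apart. The average U0126 effect was -0.46 ± 0.26 (95% interval -1.0 to 0.09, adjusted p = 0.248). The other Id2 probe sets gave -0.62 ± 0.28 and -0.36 ± 0.32, also not called, and were above the median of their array on 6 and 0 arrays.

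Id4 was represented by 1423260_at, which gave with U0126 62.3 at 1 h, 52 and 51.2 at 4 h, 38.7 and 72 at 7 h, and 66 and 99 at 12 h. Without U0126 it gave 78.5, 80.4 and 88.1 in quiescent cells and, with FGF alone, 70.5 at 1 h, 75.4 and 52.6 at 4 h, 50.7 and 65.5 at 7 h, and 115.6 and 116.8 at 12 h. Late U0126 gave 35.9 at 7 h and 101.7 at 12 h. Both FGF arrays at 12 h were above all quiescent ones, with a difference of 0.42 ± 0.36 (adjusted p = 0.5). The average U0126 effect was -0.26 ± 0.21 (adjusted p = 0.458). Its probe set 1423259_at behaved differently: with U0126 it gave 16.4 and 11.1 at 4 h, 25.1 and 30.1 at 7 h, and 37.5 and 62.3 at 12 h, against 36.7 and 56.2, 71.8 and 72.1, and 99.7 and 107.6 with FGF alone. These groups did not overlap at any of the 3 times, and the average effect was -1.03 ± 0.22 (adjusted p = 0.0058 over all probe sets). The U0126 arrays at 4 and 7 h were under the 40th percentile, so that value is a difference from near background. Replicate 1 with U0126 at 12 h (37.5) and replicate 1 of FGF alone at 4 h (36.7) were under it too. The third Id4 probe set gave -0.26 ± 0.25 (adjusted p = 0.619), so a change of Id4 was not shown by all its probe sets.

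Smad6, an inhibitory SMAD that acts chiefly on BMP signalling, gave 106.6, 186.8 and 218.6 in quiescent cells. With FGF alone it gave 77.3 at 1 h, 117.2 and 119.3 at 4 h, 123.1 and 143.2 at 7 h, and 119 and 141.6 at 12 h. The 1 h array was below all quiescent arrays, and the later ones lay within their range. FGF changed it by -1.06 ± 0.41 at 1 h (adjusted p = 0.432) and by -0.37 to -0.53 later, none called.

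With U0126 Smad6 gave 147.7 at 1 h, 31.6 and 59.4 at 4 h, 59.4 and 67 at 7 h, and 108.5 and 153.4 at 12 h. Replicate 1 at 4 h was under the 40th percentile. Group means were 45.5 ± 19.7 with U0126 against 118 ± 1.48 with FGF alone at 4 h, 63.2 ± 5.37 against 133 ± 14.2 at 7 h, and 131 ± 31.7 against 130.3 ± 16 at 12 h (SD, n = 2 each). Smad6 was below FGF alone on both arrays at 4 and at 7 h, above it on the single array at 1 h, and overlapped it at 12 h. The effect was 0.83 ± 0.47 at 1 h (adjusted p = 0.82), -1.20 ± 0.33 at 4 h (adjusted p = 0.0464), -0.93 ± 0.33 at 7 h (adjusted p = 0.135, with the block 0.0432) and -0.01 ± 0.33 at 12 h (adjusted p = 0.994). Averaged over 4, 7 and 12 h it was -0.71 ± 0.19 (adjusted p = 0.0138), called under all 27 alternatives. The difference of the Smad6 effect between these times was not called (limma F test, unadjusted p = 0.0548, adjusted p = 0.598), as for all 7 members (0 at an unadjusted p under 0.05), where 1.03% of all genes were called. The 4 h call of Smad6 was lost in 19 of 27 alternatives. Leaving out quiescent replicate 1b or 2, either FGF array at 4, 7 or 12 h, replicate 1 with U0126 at 4 h, or either U0126 array at 7 or 12 h gave adjusted p between 0.051 and 0.308. It was also lost with the higher offset (0.0561), no filter (0.0844), quiescent arrays kept separate (0.0613), the most variable probe set per gene (0.08), all probe sets (0.0537) and only the compared groups (0.172).

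Set against quiescent cells, Smad6 with U0126 differed by -0.24 ± 0.41 at 1 h, -1.72 ± 0.33 at 4 h (adjusted p = 0.00514), -1.31 ± 0.33 at 7 h (adjusted p = 0.0229) and -0.41 ± 0.33 at 12 h. Every 4 and 7 h array with U0126 lay below every quiescent array. The 4 h call of Smad6 was lost without quiescent replicate 2 (adjusted p = 0.0873) and without replicate 1 with U0126 (0.0633). Its 7 h call was lost without quiescent replicate 1b (0.0804) or 2 (0.248), and without replicate 1 or 2 with U0126 (0.157, 0.0657). Late U0126 gave 74.8 at 7 h and 75 at 12 h, both below FGF alone, with differences of -0.73 ± 0.41 and -0.70 ± 0.41 that were not called (adjusted p = 0.45 and 0.413).

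Smad7, an inhibitory SMAD of both the BMP and the transforming growth factor beta branches, was represented by 1423389_at. It gave 139.8, 147.7 and 234.3 in quiescent cells, 355.7 at 1 h of FGF, 271.2 and 280.4 at 4 h, 229.6 and 368.2 at 7 h, and 356.9 and 326.8 at 12 h. Only replicate 1 at 7 h reached into the quiescent range. The difference was 0.90 ± 0.33 at 1 h (adjusted p = 0.408), 0.55 ± 0.27 at 4 h, 0.63 ± 0.27 at 7 h and 0.85 ± 0.27 at 12 h, the last one called (adjusted p = 0.0365). That call of Smad7 was lost without replicate 1 (adjusted p = 0.159) or replicate 2 (0.101) of FGF at 12 h, with no filter (0.0587), without the variance trend (0.0568) and with the most variable probe set per gene (0.0605).

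With U0126 Smad7 gave 202.3 at 1 h, 163.4 and 177.8 at 4 h, 165.6 and 211.1 at 7 h, and 219.5 and 237 at 12 h. Group means were 171 ± 10.2 with U0126 against 276 ± 6.51 with FGF alone at 4 h, 188 ± 32.2 against 299 ± 98 at 7 h, and 228 ± 12.4 against 342 ± 21.3 at 12 h (SD, n = 2 each). Every U0126 array of Smad7 was below every FGF array of the same time. The effects were -0.77 ± 0.38, -0.65 ± 0.27, -0.60 ± 0.27 and -0.56 ± 0.27 at 1, 4, 7 and 12 h, not called singly. Their average over 4, 7 and 12 h was -0.60 ± 0.15 (adjusted p = 0.0105), called under all 27 alternatives, all of which used this probe set. Late U0126 gave 176.5 at 7 h and 241.2 at 12 h, also below FGF alone and not called. The second Smad7 probe set, 1443771_x_at, gave 0.95 ± 0.31 for FGF at 12 h (adjusted p = 0.0626) and -0.36 ± 0.18 for the average U0126 effect (adjusted p = 0.237), with the same signs but outside the limit. On that set the 1 h array read 231.9 with U0126 against 223.8 with FGF alone. Its 4 h arrays overlapped, with 212.8 and 132.7 against 233.8 and 168.5, while at 7 and 12 h those with U0126 from the start lay below FGF alone.

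**Figure D3:**
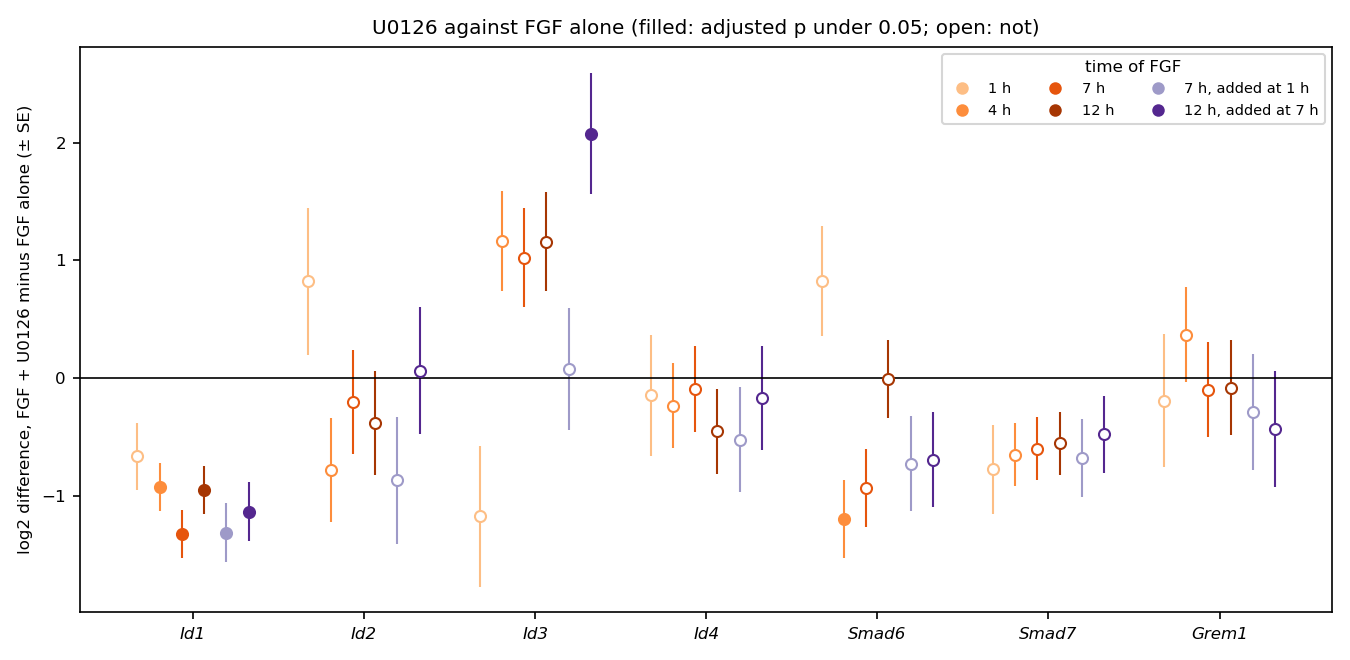
Log2 difference of FGF with U0126 minus FGF alone (± SE) for the 7 tested genes, in order of time, followed by both late additions; filled points had an adjusted p under 0.05. Id1 and Smad7 lie below 0 in every comparison, and Id3 lies above 0 except at 1 h.

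Bmp4, the ligand, was near the bottom of the array. Its signals with U0126 were 18.2 at 1 h, 8.3 and 17.1 at 4 h, 22.9 and 2.7 at 7 h, and 5.5 and 51.3 at 12 h. Without U0126 they were 3, 9.8 and 8.2 in quiescent cells and, with FGF alone, 41.5 at 1 h, 7.6 and 40.3 at 4 h, 8.9 and 58.3 at 7 h, and 34.7 and 13.7 at 12 h. Replicates of a group lay far apart, 1 of 19 arrays was above its 40th percentile and 0 were above the median. It did not pass the filter and was not tested among the genes; a fit over all probe sets gave an average U0126 effect of -0.38 ± 0.40 (adjusted p = 0.657). Grem1, the antagonist, was above the 40th percentile on 14 arrays and above the median on 0. Its signals ranged from 15.8, on quiescent replicate 1a, to 78.9, at 1 h of FGF. The average U0126 effect on Grem1 was 0.06 ± 0.23 (95% interval -0.43 to 0.56, adjusted p = 0.9), and no comparison was called.

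Ordered by group mean, Id1 was highest with FGF at 4 and 1 h, then FGF at 7 and 12 h, U0126 at 1 h, quiescent cells, U0126 at 4 and 12 h, late U0126 at 12 and 7 h, and U0126 at 7 h. Id3 ran from FGF at 1 h through U0126 at 1 h, quiescent cells and U0126 at 4 h down to late U0126 at 7 h, FGF at 7 h and, lowest, FGF at 12 h. Smad6 was highest in quiescent cells and lowest with U0126 at 7 and 4 h, and Smad7 was highest with FGF at 1 and 12 h and lowest with U0126 at 4 h. For none of the 7 tested genes did neighbouring groups in this order differ by more than 2 SE. Sorting sets the closest means side by side, so small gaps do not show that the groups were alike. Among the members, group means of Id1 and Smad7 were the most alike (Pearson r = 0.77 over 11 groups), while r was 0.13 for Id1 and Id3 and -0.18 for Id3 and Smad6. The groups share experiments, and r is given as a description.

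Among 1371 other genes that varied over the groups and exceeded the median, Id1 was most like Ccl2 (r = 0.93 over 11 group means), Ccl7 (0.93) and Gprc5a (0.92). Ccl2 and Ccl7 encode chemokines that attract monocytes. Id3 was most like Per1 (0.96), a circadian clock repressor, the kinase gene Sik1 (0.94) and Phyh (0.92), an enzyme of peroxisomal fatty acid oxidation. Id4 was most like Nrm (0.93), Nusap1 (0.92) and Cenpf (0.92), of which Nusap1 and Cenpf act in mitosis. Smad7 was most like Pcdh7 (0.89), the nuclear lamin gene Lmnb1 (0.87) and the kinase gene Sgk1 (0.85). The nearest to Smad6 was 9930012K11Rik (0.88), to Id2 Il6ra (0.87) and to Grem1 Atrip (0.87). Group means of Id2, Id4, Smad7 and Grem1 had an SD of 0.47, 0.40, 0.36 and 0.27, under the 0.5 required of the candidates. With 11 points and so many candidates, high values of r occur among unrelated genes too.

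Other genes of the pathway were read from 7 lists of 85 genes, of which 72 were tested. The average U0126 effect was called for 7 higher and 12 lower, with a list median of 0.03 against 0.01 over all genes, of which 22% were called, 11.7% higher and 10.3% lower. Of 7 tested genes on the list of BMP and GDF ligands, which also holds the protease gene Bmp1, 0 were called by limma. An unadjusted p under 0.05 was reached by 0 of them. Of 12 receptors and co-receptors 1 was higher and 2 were lower: the activin receptor gene Acvr2a (0.45 ± 0.09, adjusted p = 0.0015), the co-receptor gene Rgmb (-0.64 ± 0.11, adjusted p = 0.000697) and the type I receptor gene Bmpr1a (-0.31 ± 0.08, adjusted p = 0.00762). Of the 4 SMAD transducers 0 were called, also at an unadjusted p under 0.05. Of 14 secreted antagonists and modulators, Htra1 was higher (0.66 ± 0.12) and Crim1 lower (-0.59 ± 0.12). With the block 4 receptors and co-receptors and 3 secreted antagonists and modulators were called, where 30.6% of all genes were.

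Among 12 intracellular inhibitors and co-repressors 2 were higher and 3 lower (8 called with the block, where 30.6% of all genes were). Bambi, a decoy receptor, fell by 1.02 on the log2 scale (SE 0.17), the co-repressor Tgif2 by 0.81 (SE 0.13) and the ubiquitin ligase Smurf2, which acts with inhibitory SMADs, by 0.56 (SE 0.08). The called members of this group thus moved in both directions. Of 13 other BMP target genes 1 was higher, the cell-cycle inhibitor Cdkn1a (0.93 ± 0.15), and 3 were lower, among them the repressor Hes1 (-1.16 ± 0.12) and Dlx2 (-0.53 ± 0.12). With the block 6 of these target genes were called (30.6% of all genes). Of 10 E proteins and other partners of ID factors 2 were higher and 3 lower. Ets2, an ETS factor, rose by 1.57 ± 0.11, and the helix-loop-helix factors Twist2 (-1.07 ± 0.08) and Twist1 (-0.74 ± 0.10) fell. The other called genes encode E proteins and moved in opposite directions: Tcf12 rose (0.48 ± 0.07) and Tcf4 fell (-0.80 ± 0.12). Each named gene had an adjusted p of at most 0.00762.

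**Figure D4:**
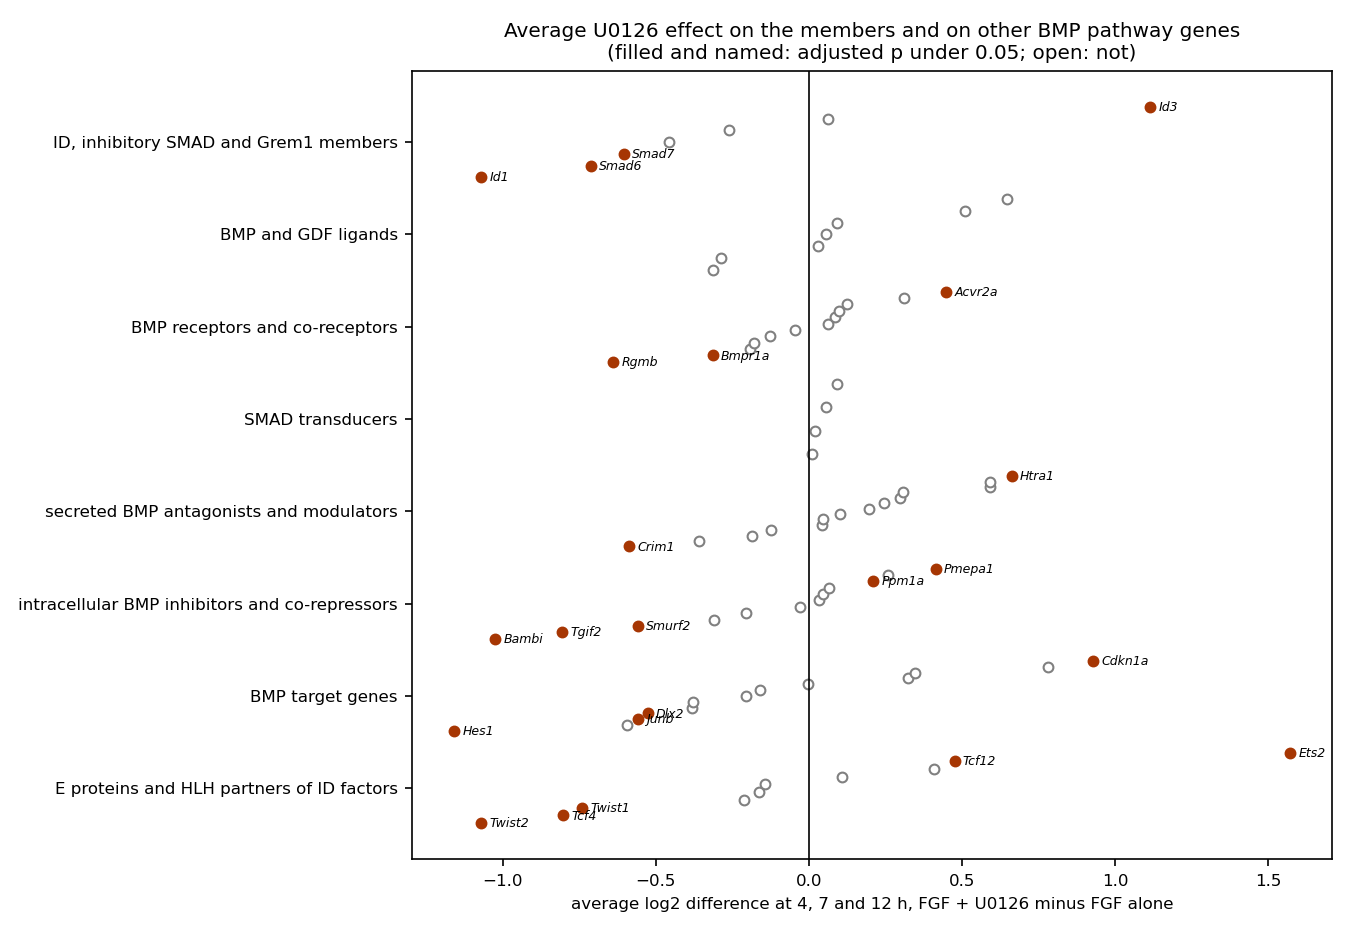
Average log2 difference at 4, 7 and 12 h, FGF with U0126 minus FGF alone, for each tested gene of the members (top) and of 7 BMP pathway lists; filled and named points had an adjusted p under 0.05. Called genes lie on both sides of 0 in most lists, and the 4 SMAD transducers lie close to 0.

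FGF at 1 h, measured on 1 array and tested with the spread of the other groups, called 3 of the 72 against quiescent cells (0.48% of all genes), all higher: the target genes Junb (2.19 ± 0.29) and Hes1 (1.47 ± 0.25) and the co-repressor Tgif1 (1.24 ± 0.17), with adjusted p of 0.00173, 0.0107 and 0.00173. With the block 1 partner of ID factors was also called, and the called target genes numbered 3 in place of 2 (1.57% of all genes). At 12 h 6 of the 72 were higher and 9 lower, a share near that of all genes (20.3% called). Among the lower were Bmp1, the procollagen protease (-1.22 ± 0.25), the receptor and co-receptor genes Acvr2a (-0.91 ± 0.15), Rgma (-1.20 ± 0.20) and Bmpr2 (-0.57 ± 0.14), and the co-repressor Ski (-1.31 ± 0.24). The secreted factors Htra1 (-0.85 ± 0.20) and Nbl1 (-0.97 ± 0.27) and the E protein Tcf4 (-0.66 ± 0.21) were lower as well. Higher were Tgif2 (1.03 ± 0.22), Tgif1 (0.77 ± 0.14), Twist2 (0.74 ± 0.13) and Twist1 (0.62 ± 0.18). The antagonist Nog was counted as higher too, with 53.6 and 48 at 12 h of FGF against 7.5, 16.9 and 2.8 in quiescent cells. Those quiescent signals were not above background, and the 48 of replicate 2 was under the 40th percentile of its array (54.6). Nog passed the filter only through FGF arrays, so neither a size nor a p is given. With the block (30% of all genes called), calls at 12 h numbered 5 for the secreted antagonists in place of 3, and 2 in place of 0 for the SMAD transducers and for the target genes. Receptors and co-receptors then numbered 4, and intracellular inhibitors and co-repressors 6. The gene lists were drawn up with earlier results of these arrays known.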

How the data were processed

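RNA of NIH3T3 cells was measured on 19 Affymetrix arrays. The deposited values are signal intensity on a linear scale, made with MAS5, per the submitters' processing notes; its version is not given in the sources used here. In the deposited values the mean without the top and bottom 2% is close to 500 on every array. Of 45101 probe sets, 64 were controls, 34945 matched 1 gene, 932 several and 9160 none; only those with 1 gene were tested.

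Signals were analysed as log2(signal + 13.6), the 20th percentile. Quiescent replicates 1a and 1b were averaged. A probe set was kept if 2 or more arrays gave it a value over their own 40th percentile, and the brightest set stood for its gene. A single limma 3.58.1 fit (R 4.3.3) held all 11 groups (variance trend, 7 residual and 7.47 prior degrees of freedom), 2-sided, with Benjamini-Hochberg adjustment over 14996 genes and a limit of 0.05. Figures used matplotlib 3.10.9. The workflow was tested on simulated data.

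Only in the block were samples of the same experiment number, as the labels give it, taken as paired. Replicate deviations correlated over all 21 pairs of groups (r 0.127 to 0.305, median 0.211). The calls come from the fit without this block, so they leave the pairing out. For the members the blocked value is given where it changes a call. For the gene lists the blocked count is given where it differs.

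The members and gene lists were chosen with earlier results of these data known. Named pathway genes are the up to 3 per list with the smallest adjusted p under 0.05 for FGF at 1 h, FGF at 12 h and the average U0126 effect. For that average the called E protein genes Tcf12 and Tcf4 are named as well. The genes most like a member have the highest Pearson r of group means among tested genes with an SD of at least 0.5 and a mean signal above the median. Alternatives were quantile normalization, 75th percentile scaling, other offsets, other filters, no variance trend, 3 separate quiescent arrays, other probe set rules, the block, only the compared groups, and leaving out each replicate; a lone array left in a group was assumed to vary like the others.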

Additional observations from a re-analysis of the deposited data

How the results depend on the processing

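Over all member results and alternatives, 75 values lost their call and 19 gained one. Of the values called in either fit 0 changed sign, while 73 values called in neither did. The average U0126 effects called for Id1, Id3, Smad6 and Smad7 kept their call under all 27 alternatives. None of these exchanged the Smad7 probe set, and its second set was not called (-0.36 ± 0.18, adjusted p = 0.237). Alternatives that left out an array outside a comparison acted on it mainly through the shared spread. The cause of the changes below was not tested.

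Counts of called members changed as follows. With the experiment number as a replicate block they were 2 for FGF at 4 h, 3 for U0126 at 7 h, 2 for U0126 at 12 h and 3 for FGF with U0126 at 7 h; no other count moved by over 1.5 times, and calls the block changed stand beside their values. With only the compared groups in the fit they were 1 for FGF at 1 h, 1 for FGF at 7 h, 1 for U0126 at 4 h, 1 for U0126 added at 7 h and 2 for FGF with U0126 at 7 h. The higher offset and 3 separate quiescent arrays each gave 2 for FGF at 4 h and 1 for U0126 at 4 h. Without the variance trend they were 1 for FGF at 7 h, 1 for FGF at 12 h, 0 for U0126 added at 7 h and 0 for FGF with U0126 at 12 h. The probe set of highest variance gave 1 for FGF at 7 h, 1 for FGF at 12 h, 1 for U0126 at 4 h and 0 for FGF with U0126 at 12 h, and called Id4 for the average U0126 effect (-1.03, adjusted p = 0.00725). No filter gave 1 for U0126 at 4 h and 1 for U0126 added at 7 h, all probe sets 1 for U0126 at 4 h, quantile normalization 1 for U0126 added at 7 h, and a filter at the median on 4 arrays 2 for FGF with U0126 at 7 h. For FGF with U0126 at 12 h the count was 0 with quantile normalization, an offset of 1, no filter or all probe sets.

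Leaving out each replicate gave 0 to 1 for FGF at 1 h, 0 to 2 at 4 h, 1 to 2 at 7 h and 1 to 3 at 12 h. For U0126 it gave 0 to 2 at 4 h and 0 to 2 at 12 h, and 0 to 2 for U0126 added at 7 h. For FGF with U0126 it gave 0 to 1 at 4 h, 0 to 2 at 7 h and 0 to 1 at 12 h. Groups of 1 or 2 samples and signals near the 40th percentile limit Bmp4, Grem1, Id2 and Id4 most.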
